A study of Mus musculus with 12 samples.

Results

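The Aid+/+ iPS cell clones of this study came from 2 clone series, 979B and 967B, and the question followed here is how far 2 reprogramming experiments of the same genotype differ in gene expression. The clones were chosen by their names and genotype, not by any measured value: 979B1, 979B3 and 979B4 against 967B2, 967B4 and 967B6, which are 6 of the 12 clones on the arrays. The other 6 clones were Aid-/- clones of the series 979F (979F1, 979F2 and 979F3) and of a second Aid-/- series (981E1, 981E4 and 981E5), and are used here only as a point of reference. All 12 clones were labelled as male, carried the Nanog-GFP reporter, came from a mixed background of C57BL6, DBA and 129S4, and were taken at passage 6 on gelatin with LIF and puromycin. They had been made from embryonic fibroblasts with retroviruses carrying the reprogramming factors Klf4, Sox2 and Oct3/4, to which c-Myc was added in some cases, and the sources used here do not state which factor set or which lot of fibroblasts gave which clone. The study numbers its experiments, and the leading digits of 967B and of 979B and 979F are those of experiments it lists, so that 979B and 979F carry the same experiment number. Total RNA of each clone was labelled with Cy3 and hybridised to 1 one-colour Agilent mouse array.

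iPS cells are somatic cells returned to a pluripotent state by forced expression of transcription factors, and they resemble embryonic stem cells in their markers. Clones of 1 genotype are known to differ from each other in imprinted genes, in remaining traces of the cell of origin, in strain-specific variants and in the transient 2-cell-like state that stem cell cultures pass through.

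Values are log2 intensities relative to the 75th percentile of their array, so that 0 is the level of a fairly bright probe and a difference of 1 is 2-fold. Between 31698 and 33519 of the 55681 probes were well above background on each wild-type array, and 29229 on all 6. Slide 1 carried the arrays of 967B, slide 2 the 979F clones, and slide 3 both 979B and the second Aid-/- series. Slide and series cannot be told apart between 979B and 967B, and the second Aid-/- series, which shared the slide of 979B, is therefore given beside the results. The pluripotency markers Pou5f1, Nanog, Sox2, Zfp42, Esrrb, Dppa5a, Utf1 and Tdgf1 were detected above background by each of their 10 probes in every wild-type clone. Their summed linear level ranged from 862 to 919 in 979B and from 777 to 1080 in 967B, and the labelled cell type was thus borne out by its markers.

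Clone 967B4 stood apart from the other 5 wild-type clones. On 563 of 36943 probes it lay more than 4-fold above or below all 5 others, 509 of them lower, against 42 to 179 probes for any other clone. Its Euclidean distance to the other clones, over probes well above background on at least 1 of the 6 arrays, ranged from 163 to 189, while 967B2 and 967B6 lay 90.5 apart. Named members of this group, chosen after their values were seen, were Zscan4f and Zscan4c, markers of the 2-cell-like state, and Meg3, the maternally expressed non-coding RNA of the Dlk1-Dio3 imprinted region. Zscan4f lay at 2.30, 3.87 and 3.39 in 979B1, 979B3 and 979B4, at 3.68 and 3.19 in 967B2 and 967B6, and at -6.63 in 967B4, where it was not well above background. Dlk1, the paternally expressed gene of the same region as Meg3, lay at 3.07, 3.79 and 3.18 in 979B and at 2.61, -2.68 and 1.59 in 967B2, 967B4 and 967B6. For genes described clone by clone its value can be read, and other differences and list medians that moved by over 1.5 times without it are given with both values.

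Among the Aid-/- clones, 979F3 went against its label. The Y-linked genes Ddx3y, a helicase, and Eif2s3y, a translation factor subunit, lay at 1.02 to 3.44 and at 3.56 to 5.61 in the other 11 clones and at -7.24 and -7.40 in 979F3, where neither they nor the probes of Uty were well above background. Most counts that use the 979F series are therefore given without this clone too. Leaving it out moved the 979F means of the genes and probes described below by at most 0.281.

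**Figure D1:**
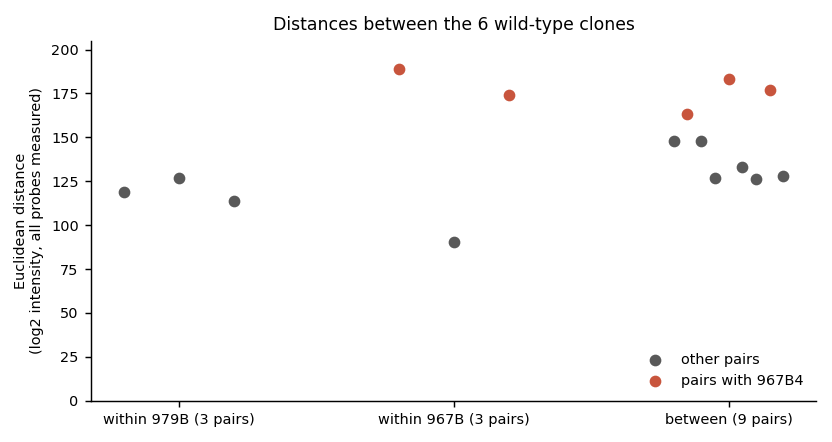
Euclidean distance of log2 intensities for the 15 pairs of wild-type clones, over the 36920 of 36943 probes with a value in every clone; each point is 1 pair, and red points are pairs with 967B4. The 5 pairs with 967B4 lie between 163 and 189, within and between series alike, and the pair 967B2 and 967B6 is the closest at 90.5.

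On average, distances between the 2 series were longer than the pooled distances within them, but not longer than those within 967B. The 9 pairs between series had a mean distance of 148 ± 22.0 (SD), the 3 pairs within 979B 120 ± 6.43 and the 3 pairs within 967B 151 ± 52.9. The mean between series exceeded that within series by 12.7, and by 22.3 without 967B4. Of the 10 ways to split 6 clones into 3 and 3, 2 gave a difference at least as large (exact permutation test, one-sided, p = 0.2), and the smallest p this design allows is 0.1. Over the 29229 probes measured on all 6 arrays, the difference was 14.3 (exact permutation test, one-sided, p = 0.1). The test could thus not reach a p under 0.05 with 3 clones against 3, whatever the distances.

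Single genes separated the series. In limma with Benjamini-Hochberg adjustment over all 55681 probes, 22 probes were higher in 979B by more than 2-fold at an adjusted p under 0.05 (0.0395% of the probes tested) and 22 were lower (0.0395%). All 44 had no overlap between the 3 and 3 clones. They held 18 probes that match a RefSeq gene, of 16 genes, 12 for lincRNAs and 14 that were not named. Their log2 differences were at least 1.37 in size. Of the 44, 21 were measured above background in all 6 clones, and 15 in all 3 clones of 1 series and none of the other. When the spread was estimated from all 12 clones, 110 probes were higher (0.198%) and 171 lower (0.307%), and 40 of the 44 were among them. The number of calls rested on each clone. Without 967B4, 130 probes passed, 38 of them among the 44, whereas without any 1 of the other clones 0 or 1 passed, with 3495 to 4591 probes at an unadjusted p under 0.05.

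Among the named genes that passed both thresholds, Ccnb1ip1 was the furthest below and Asb14 the furthest above in 979B. Both lie on chromosome 14, and the sequences of their promoters are given here for reference only. Ccnb1ip1 encodes a ubiquitin ligase needed for crossing over in meiosis, and Asb14 a protein with ankyrin repeats and a SOCS box. The sequences are those of RefSeq on GRCm38.p6, 250 bases before to 50 after the annotated start, at chr14:50795679-50795978 on the minus strand for Ccnb1ip1 and at chr14:26894364-26894663 on the plus strand for Asb14. Capitals mark CG dinucleotides, the sites of DNA methylation in mammals.
Ccnb1ip1: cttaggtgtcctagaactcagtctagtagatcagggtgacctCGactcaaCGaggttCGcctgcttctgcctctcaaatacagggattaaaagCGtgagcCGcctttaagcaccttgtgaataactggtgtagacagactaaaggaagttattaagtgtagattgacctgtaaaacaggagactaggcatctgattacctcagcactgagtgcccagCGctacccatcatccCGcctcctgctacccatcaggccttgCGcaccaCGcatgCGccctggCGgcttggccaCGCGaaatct
Asb14: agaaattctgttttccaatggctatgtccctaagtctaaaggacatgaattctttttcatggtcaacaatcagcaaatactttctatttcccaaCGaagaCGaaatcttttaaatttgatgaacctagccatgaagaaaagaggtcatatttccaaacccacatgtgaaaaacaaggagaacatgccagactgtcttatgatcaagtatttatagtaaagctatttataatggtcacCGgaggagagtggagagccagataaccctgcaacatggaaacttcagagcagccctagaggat
The Ccnb1ip1 window holds 13 CG, which read the same on both strands, and 37.9% of the 32851 RefSeq promoter windows hold as many or more. The Asb14 window holds 3, and 76.7% hold as many or more. Methylation was not measured on these arrays.

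Ccnb1ip1 lay at -3.03, -2.67 and -2.12 in 979B1, 979B3 and 979B4 and at 1.21, 1.74 and 1.22 in 967B2, 967B4 and 967B6. All 979B clones were thus far below all 967B clones, by -4.00 ± 0.28 (SE), or 15.9-fold, with an adjusted p of 0.0269. In the Aid-/- clones it lay at -2.51, -2.46 and -2.39 in 979F1, 979F2 and 979F3 and at 0.39, 0.43 and 0.1 in 981E1, 981E4 and 981E5. The series 979F was at the low level of 979B, and the second Aid-/- series, on the slide of 979B, near the high level of 967B.

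Asb14 showed the opposite order. It lay at -2.85, -3.06 and -3.04 in 979B and at -6.96, -7.37 and -6.36 in 967B, where none of the 3 arrays was well above background. It was therefore at least 9.28-fold higher in 979B, a bound set by the dimmest signals that counted as detected on the arrays of 967B (adjusted p = 0.0254). In 979F it was measured at a mean of -3.81 ± 0.19 (SD, n = 3), and in the second Aid-/- series it was again not well above background.

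**Figure D2:**
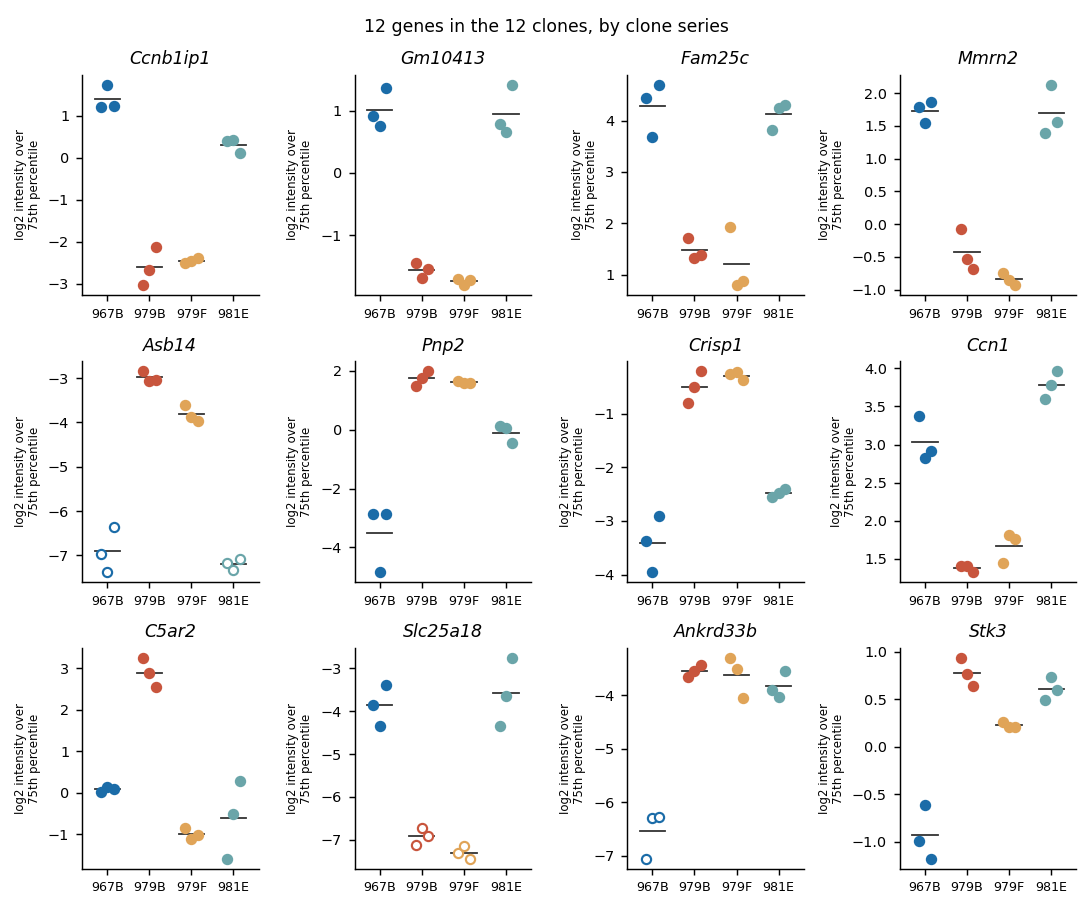
log2 intensity relative to the array's 75th percentile for 12 genes in the 12 clones, 1 panel a gene with its own axis; points are clones, open points mark a series with no array well above background, and bars are means of 3 clones. In Ccnb1ip1, Gm10413, Fam25c, Mmrn2, Asb14, Pnp2, Crisp1, Ccn1 and Slc25a18 the series 979F lies nearer to 979B, whereas in C5ar2 979B and in Ankrd33b and Stk3 967B stands alone. In Pnp2 the second Aid-/- series lies nearer to 979B too.

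Chromosome 14 held many more separated genes than other chromosomes. Among probes well above background on all 6 arrays, 193 (0.66%) were over 2-fold higher in 979B with no overlap between the 3 and 3 clones, and 261 (0.893%) over 2-fold lower. On chromosome 14, 15 were higher and 33 lower of 869, which is 5.52% in both directions together. On the autosomes other than 14 and on X the share ranged from 0.284% to 2.04%, and was 1.33% over all of them. Of the 44 probes past both thresholds, 11 lay on chromosome 14, which holds 1662 of the probes tested. The chromosome was singled out after these values were seen, and its share was not tested.

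**Figure D3:**
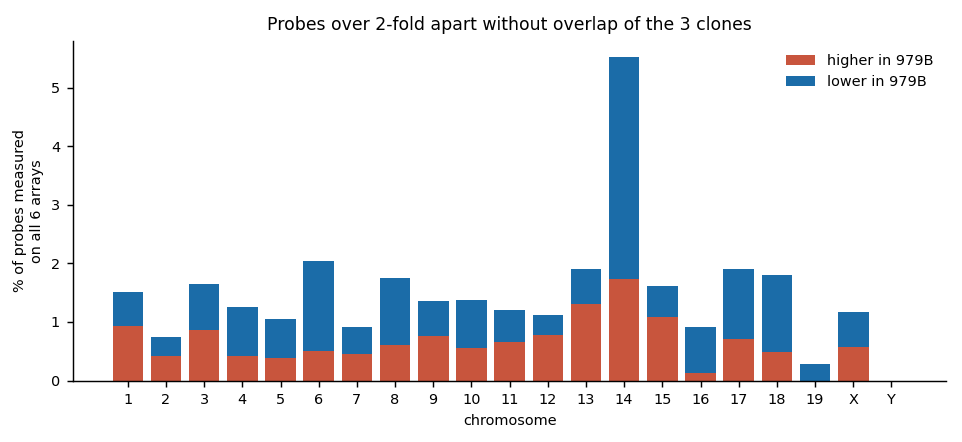
Share of probes well above background on all 6 wild-type arrays that were over 2-fold higher (red) or lower (blue) in 979B with no overlap between the 3 and 3 clones, by chromosome; the bars are stacked. Chromosome 14 reaches 5.52% and no other chromosome exceeds 2.04%.

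The separated genes of chromosome 14 were not spread along it. Of the first 250 measured genes in RefSeq order, 32 were over 2-fold apart without overlap (12.8%), and of the 220 genes after them 2 were (0.909%). The first 50 genes alone held 13, of which all but Pdhb were near-identical gene models described next, the genes 51 to 100 held 6 and the genes 151 to 200 held 8. Without those models the share of separated probes on the whole chromosome was 3.42%, or 29 of 848, of which 15 were higher and 14 lower. In 266 such windows of the other chromosomes the median was 0 and the highest count was 5, on chromosome 15.

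At the start of the chromosome lies a group of repeated gene models, among them Gm2897, D830030K20Rik, Gm10413, Gm3002, Gm5796, Gm3264, 4930555G01Rik, Gm3317, Gm10406, Gm3696, Gm5797 and Gm5458. Of the 21 probes of these 12 models measured on all 6 arrays, 19 were over 2-fold lower in 979B without overlap, with log2 differences of -2.67 to -0.09 over all 21. All 24 probes of the group were lower, 5 passed both thresholds and 19 did so when the spread was taken from all 12 clones. A probe may detect several such copies, so the probes are not independent measurements of separate genes.

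Gm10413 lay at -1.45, -1.68 and -1.55 in 979B and at 0.92, 0.76 and 1.37 in 967B, a difference of -2.58 ± 0.20 (SE) with an adjusted p of 0.032. The 4930555G01Rik probe with the larger difference lay at -3.41, -3.67 and -3.81 in 979B and at -1.29, -1.31 and -1.03 in 967B. Gm3696 lay at 0.02, -0.00 and -0.25 in 979B and at 2.06, 1.78 and 2.02 in 967B. In each of these 3 the groups were separated by more than the range of either. Gm5797 was a brighter member, at 2.68, 2.48 and 2.60 in 979B against 4.35, 4.25 and 4.72 in 967B. Gm5796, at 3.83, 3.63 and 3.66 against 5.45, 5.30 and 5.80, differed by -1.82 with an adjusted p of 0.0503 and so just missed the threshold.

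The Aid-/- series divided in the same way over this group. Between 979F and the second Aid-/- series, which share no array with the wild-type comparison, the 21 probes differed by -2.82 to 0.12, and 18 of the 24 probes passed both thresholds, against 0.761% of all probes for the 2 directions together. These calls rested on each Aid-/- clone: without 979F3 the 21 probes differed by -3.03 to 0.17, but 0 of the 24 and 1 of all probes (0.0018%) passed, and without any 1 of the other Aid-/- clones 0 to 11 passed, of 1 to 94 in all. The mean of the second Aid-/- series lay within -0.58 to 0.09 of that of 967B, although it shared its slide with 979B. The mean of 979F lay within -0.73 to 0.13 of that of 979B, from another slide.

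**Figure D4:**
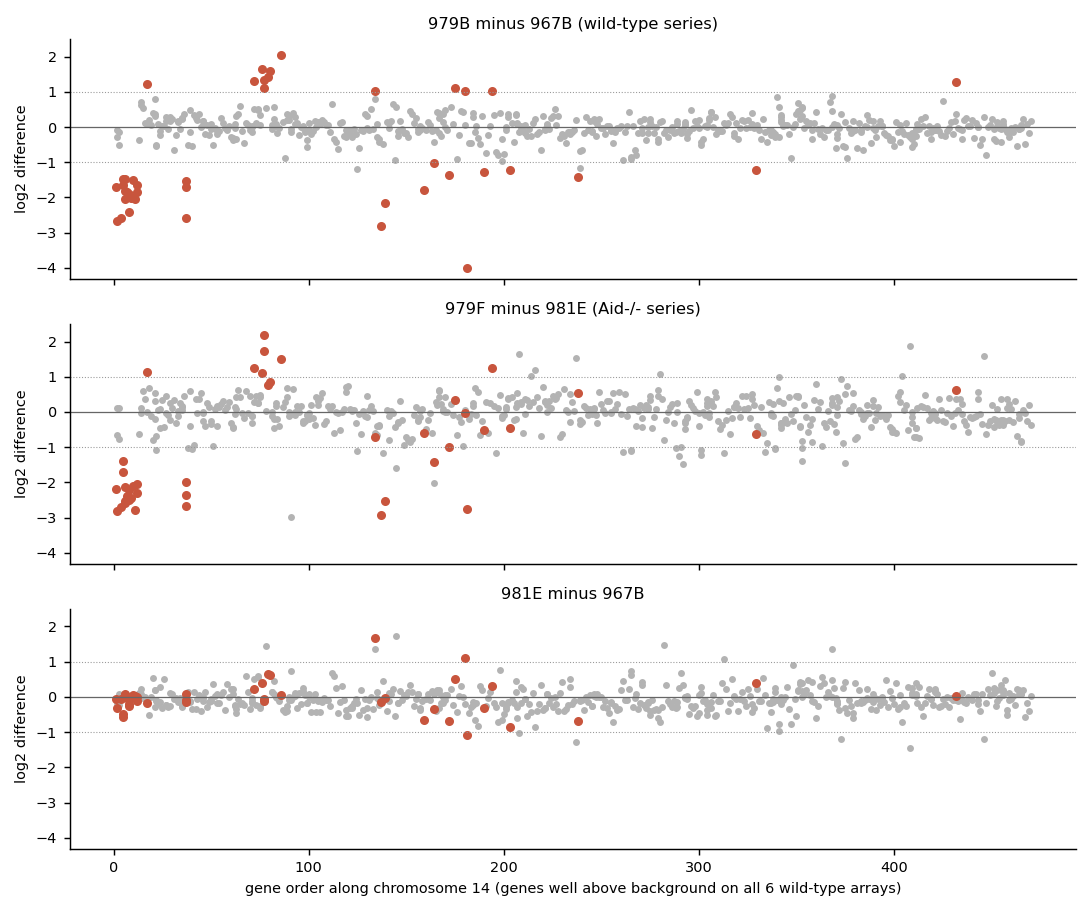
log2 difference of series means against the order of genes along chromosome 14, for probes well above background on all 6 wild-type arrays; red points are probes over 2-fold apart without overlap in the wild-type comparison, shown in the same colour in all panels, and dotted lines mark 2-fold. The low group at the left has values near -2 in both upper panels and near 0 in the lower one, where the second Aid-/- series is set against 967B.

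Farther along the chromosome, single genes were higher or lower in turn. Pnp2, a purine nucleoside phosphorylase gene next to its better known copy Pnp, lay at 1.5, 1.77 and 1.98 in 979B and at -2.88, -4.83 and -2.85 in 967B, where 2 of 3 arrays were well above background. The difference of 5.27 ± 0.55 (SE) was the widest of any gene named here but had an adjusted p of 0.0585, and of 0.000951 with the spread of all 12 clones. Pnp2 means were 1.61 in 979F and -0.1 in the second Aid-/- series, both nearer to 979B than to 967B. Gm3219 lay at -1.25, -1.51 and -1.66 in 979B and at -4.57, -5.06 and -4.56 in 967B, with 1 of the 3 arrays of 967B well above background (adjusted p = 0.0219). Its level in the second Aid-/- series, -2.34 ± 0.20 (SD, n = 3), was nearer to 979B than to 967B.

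Fam25c, a gene chosen after its values were seen, lay at 1.71, 1.32 and 1.39 in 979B and at 4.44, 3.68 and 4.70 in 967B. Its near neighbour Mmrn2, which encodes a glycoprotein of the vessel wall matrix, lay at -0.07, -0.53 and -0.69 against 1.78, 1.54 and 1.87. Both were lower in all 979B clones, with an adjusted p of 0.0569 for Fam25c and of 0.0503 for Mmrn2. Ktn1, which encodes the kinesin-binding protein kinectin, differed less but with little spread, at 2.42, 2.39 and 2.30 against 3.75, 3.71 and 3.78 (adjusted p = 0.0418). Pdhb, a subunit of pyruvate dehydrogenase, was higher at 5.87, 6.01 and 6.07 against 4.63, 4.86 and 4.80 (adjusted p = 0.0685), while its other probe differed by 0.09 only.

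Developmental regulators were among the separated genes of this chromosome that missed the threshold, and they are named after their values were seen. Hesx1, a homeobox repressor of early forebrain and stem cells, lay at 0.25, 0.24 and 0.33 in 979B and at -1.42, -2.43 and -1.46 in 967B (adjusted p = 0.106). Bmp4, a growth factor of the mesoderm, lay at 1.07, 1.66 and 1.59 against 2.63, 4.30 and 2.73 (adjusted p = 0.321), its highest value being that of 967B4. Without overlap, too, were Plac9a, Tmem254a, Duxbl1 and Duxbl2, which lie close together and were higher in 979B, each lowest in 967B4. Plac9a was higher by 1.66, Duxbl1 by 1.43 and by 0.45 without 967B4, Duxbl2 by 1.59 and by 0.77 without it, and the 2 probes of Tmem254a by 1.12 and 1.33, and by 0.72 and 0.77 without it.

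Outside chromosome 14, C5ar2, a receptor for the complement fragment C5a, stood apart in 979B, with both Aid-/- series nearer to 967B. It lay at 3.24, 2.88 and 2.55 in 979B and at 0.02, 0.14 and 0.08 in 967B (adjusted p = 0.029), and its second probe also passed, at 0.13, -0.26 and -0.56 against -2.93, -2.73 and -2.99. Its mean was -0.99 in 979F and -0.61 in the second Aid-/- series, so that 979B was the highest of the 4 series.

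Of the 16194 lincRNA probes, 12 passed both thresholds, a share of 0.0741% that is near the 0.079% of all probes. The probe A_30_P01031606 for a lincRNA interval at chr4:140609589-140614789 (mm9) lay at -3.29, -3.77 and -3.27 in 979B, and was not well above background in 967B, 979F or the second Aid-/- series. A_30_P01031606 was at least 6.76-fold higher in 979B than in 967B (adjusted p = 0.0209), and a second probe to the same interval, A_30_P01027509, at least 7.29-fold (adjusted p = 0.032). By contrast, the probe A_30_P01023334 for chr16:7947710-7948066 (mm9), at least 7.21-fold higher in 979B, was as high in 979F, with means of -3.35 and -3.62. Of the lincRNA probes lower in 979B, A_30_P01024199 and A_30_P01018426, for chrX:11699327-11699881 and chr14:106250821-106261843 (mm9), were not well above background in 979B, and 967B was at least 3.77-fold and 4.63-fold higher.

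Of the 14 unnamed probes, A_55_P2132982 had the largest difference of all, at -0.58, -0.40 and -0.27 in 979B against -6.79, -6.31 and -5.94 in 967B, where it was not well above background. The unnamed A_55_P2164085 had the lowest, at -3.89, -4.00 and -3.13 against 0.76, 0.62 and 0.90. In 979F and the second Aid-/- series the means of A_55_P2132982 were -5.74 and -6.38, near 967B, and those of A_55_P2164085 were -0.17 and -1.03. These 2 probes were singled out for their values.

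In other genes 967B was the series that stood alone. Ankrd33b, which encodes an ankyrin repeat protein, lay at -3.66, -3.54 and -3.44 in 979B and was not well above background in 967B, at -7.06, -6.30 and -6.27, so that it was at least 5.71-fold higher in 979B (adjusted p = 0.0383). Its means in 979F and the second Aid-/- series were -3.62 and -3.83. A second Ankrd33b probe, well above background on all 6 arrays, went the other way by -0.77 (adjusted p = 0.689), and the 2 probes thus disagree. Stk3, a kinase of the Hippo pathway on the same chromosome 15, lay at 0.93, 0.76 and 0.64 against -0.99, -0.61 and -1.18 (adjusted p = 0.0685), with 979F at 0.23 and the second Aid-/- series at 0.61. Cthrc1, a secreted collagen triple helix protein farther along, lay at -0.44, -0.11 and -0.18 against -1.61, -1.78 and -1.64 (adjusted p = 0.0565), but 979F at a mean of -0.96 and the second Aid-/- series at -1.16 lay between the 2, so that 967B did not stand alone.

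Slc25a18, a mitochondrial glutamate carrier on chromosome 6, again divided 979B and 979F from the rest. It lay at -7.11, -6.73 and -6.90 in 979B, not well above background, and at -3.86, -4.34 and -3.4 in 967B, at least 5.61-fold higher (adjusted p = 0.0418). Its means were -7.30 in 979F and -3.59 in the second Aid-/- series. Crisp3 and Crisp1, which encode cysteine-rich secretory proteins known from the male reproductive tract and which are neighbours on chromosome 17, were higher in 979B. Crisp3 lay at 1.30, 1.48 and 1.85 against -0.85, -1.52 and -0.82 (adjusted p = 0.0503), and Crisp1 at -0.79, -0.50 and -0.21 against -3.38, -3.95 and -2.90 (adjusted p = 0.0569). In 979F they were at the level of 979B, with means of 1.79 and -0.29. Nppb, the natriuretic peptide B gene, was lower at -2.64, -2.64 and -2.61 against -0.85, -0.44 and -1.03 (adjusted p = 0.0503), and 979F was as low at a mean of -2.47.

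The remaining genes followed no common pattern. Slc23a1, a vitamin C transporter, lay at -2.63, -2.57 and -2.55 in 979B and at -1.19, -1.12 and -1.07 in 967B (adjusted p = 0.0395). It was as low in the second Aid-/- series, at a mean of -2.87, as in 979B. Zfp944, a zinc finger gene, lay at -3.88, -3.98 and -4.24 against -2.50, -2.12 and -2.29 (adjusted p = 0.0503). Neurod1, a neuronal transcription factor, lay at -1.04, -1.12 and -1.22 against -2.20, -2.43 and -2.31 (adjusted p = 0.0687), and its adjusted p was 0.136 with the spread of all 12 clones. The probes by which Eps8l1, Lrrc18 and Smok4a passed both thresholds were dim, each measured in at most 2 of the 3 clones of either series. Eps8l1 lay at -4.91, -4.71 and -4.94 in 979B and a probe of Lrrc18 at -4.68, -4.91 and -5.10, both not well above background in 967B. A probe of Smok4a lay at -4.95, -5.26 and -4.87 in 967B, well above background in 1 of the 3, and was not well above background in 979B. Brighter probes of Lrrc18 and Smok4a, measured in at least 2 of the 3 clones of each series, differed the same way by 1.49 and -1.56 without passing (adjusted p = 0.226 and 0.255).

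Over the 44 probes past both thresholds, 37 differed in the same direction between 979F and the second Aid-/- series as between 979B and 967B. This is 84.1%, against 57.4% of all 55681 probes and 77.6% of the 577 probes that were over 2-fold apart in the wild type and measured on all 12 arrays. On their own, 16 of the 44 passed both thresholds between 979F and the second Aid-/- series in that direction and 0 in the other. Of the 577 probes, 76 passed in that direction and 2 in the other. Of all probes 0.761% passed in either direction. Without 979F3, 38 of the 44 had the same direction (86.4%, against 52.6% of all probes) and 0 passed, and without any 1 of the other Aid-/- clones 0 to 10 passed. In 26 of the 44 the mean of 979F lay nearer to 979B and that of the second Aid-/- series nearer to 967B, in 11 both Aid-/- series lay nearer to 967B, and in 7 both lay nearer to 979B, or 25, 12 and 7 without 979F3. These are 59.1%, 25% and 15.9%, against 24.2%, 33.8% and 26% of the 29229 probes measured on all 6 wild-type arrays, where the remaining 16% had 979F nearer to 967B and the second Aid-/- series nearer to 979B. For the 48 chromosome 14 probes over 2-fold apart without overlap the 3 patterns held 41, 2 and 5 probes and the remaining one 0. For the other 406 such probes they held 167, 142 and 74, and the remaining one 23. Without 979F3 the counts of these 406 were 170, 139, 74 and 23, and those of chromosome 14 were unchanged.

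The pluripotency genes Nanog, Pou5f1, Dppa5a, Eras and Khdc3 differed little between the series. Nanog lay at -0.62, -0.93 and -0.64 in 979B and at -0.89, 0.19 and -1.10 in 967B, Pou5f1 at 3.37, 3.17 and 3.16 against 3.31, 3.00 and 3.61, and Dppa5a at 9.14, 9.07 and 9.05 against 9.02, 9.35 and 8.81. In all 3 the clones overlapped. Eras lay at 1.97, 2.09 and 2.08 against 2.04, 2.74 and 2.16, and Khdc3 at 2.85, 2.92 and 2.79 against 2.48, 2.55 and 3.01. The 7 probes of the reference gene Gapdh differed by 0.01 to 0.15, and by 0.04 to 0.20 without 967B4.

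None of 394 probes of 290 genes on 17 lists of pathways and cell types passed the adjusted p in limma, though 59 had an unadjusted p under 0.05, which is 15% of them against 8.88% of all probes. With the spread of all 12 clones 4 passed, namely Ccn1, Ccn2 and Etv4, which were over 2-fold lower, and Taf7l, which was higher by 0.70, against 0.711% of all probes past that adjusted p. Lists are therefore described by counts and medians, beside all 29229 probes measured on all 6 arrays. Of those, 2495 (8.54%) lay higher in all 979B clones than in all 967B clones at any size, 3103 (10.6%) lower, and the median difference was -0.005. Without 967B4, with 3 clones against 2, the shares were 25.8% and 23.8%.

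Immediate-early and growth-factor response genes, which are switched on within minutes by ERK and serum signals, were the list with the most negative median over all 6 clones. Of 19 measured probes 12 were lower in 979B without overlap and 1 higher, with a median of -0.66. Without 967B4, 13 were lower and 3 higher and the median was -0.39, above those of the primed pluripotency and Y-linked lists at -0.64 and -0.81. Ccn1, a matricellular target of serum and YAP signals, lay at 1.41, 1.41 and 1.33 in 979B and at 3.37, 2.82 and 2.91 in 967B, with an adjusted p of 0.0644, and of 0.00233 with the spread of all 12 clones. Its relative Ccn2 lay at 2.69, 3.08 and 3.01 against 5.13, 4.05 and 5.01. The transcription factors Egr2 and Etv4 lay at -3.92, -4.06 and -3.94 against -2.43, -0.55 and -2.76, and at 0.52, 0.64 and 0.64 against 1.42, 2.42 and 1.64. In Egr2 and Etv4 the highest value was that of 967B4, and so it was in Fos, at 2.65 against -1.70 to -0.65 in the other 5 clones, a gene chosen after its values were seen. Ccn1 and Ccn2 were also lower in 979F than in the second Aid-/- series, by -2.11 and -1.51, whereas Etv4 was higher by 0.76. Egr2 and Fos were lower in 979F than in the second Aid-/- series too, by -4.76 and -1.70. No 979F array was well above background in Egr2. In the wild type Fos overlapped between the series, with a difference of -1.19, and of 0.18 without 967B4.

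**Figure D5:**
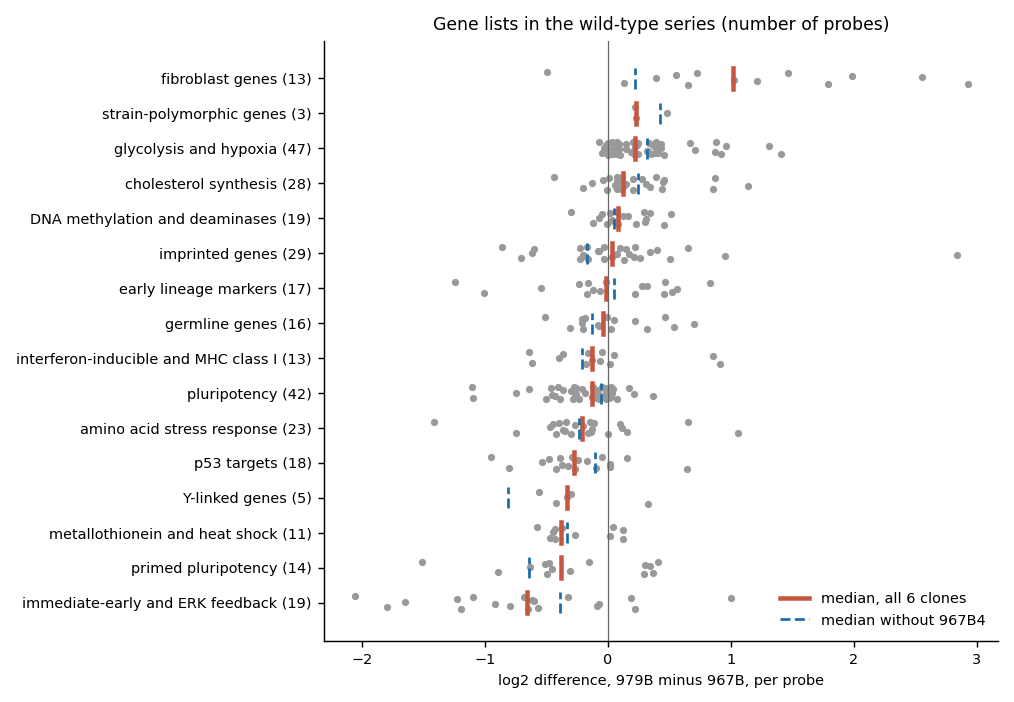
log2 difference between 979B and 967B for each probe of 16 gene lists that was well above background on all 6 arrays, with the number of probes in brackets; red bars are the medians and blue dashed bars the medians without 967B4. The immediate-early list lies lowest at -0.66 over all 6 clones but above the primed pluripotency and Y-linked lists without 967B4, and the fibroblast list moves from 1.02 to 0.22 when 967B4 is left out.

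Genes of glycolysis and hypoxia leaned the other way. Of 47 measured probes 8 were higher in 979B without overlap and 0 lower, with a median of 0.22. Without 967B4, 31 were higher and 0 lower, with a median of 0.32. Ankrd37, a target of the hypoxia factor HIF1, lay at 3.83, 3.56 and 3.4 in 979B and at 1.90, 2.64 and 2.02 in 967B (adjusted p = 0.143). Adm, the vasodilator peptide adrenomedullin, lay at -0.81, -1.04 and -1.57 against -2.31, -2.23 and -2.81 (adjusted p = 0.192). The glucose transporter Slc2a1 lay at 6.84, 6.95 and 6.76 against 6.44, 6.45 and 6.37. One probe of P4ha1, a collagen prolyl hydroxylase, differed by 1.74, with 1 of 3 arrays of 967B well above background. Another P4ha1 probe, among the 47 measured, differed by 0.88. The means of 979F and the second Aid-/- series for Ankrd37, 2.16 and 2.24, were near that of 967B.

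In the list of cholesterol synthesis 6 of 28 probes were higher without overlap and 1 lower (median 0.12), and without 967B4 19 were higher and 2 lower (median 0.24). The sterol carrier gene Stard4 differed by 1.14, the cyclase gene Lss by 0.45, and Hsd17b7, also a step of the pathway, by -0.44. In the amino acid stress response 8 of 23 probes were lower and 2 higher (median -0.21). Chac1, which degrades glutathione, lay at 1.72, 1.86 and 2.15 in 979B and at 3.12, 3.69 and 3.17 in 967B (adjusted p = 0.114), and the pseudokinase gene Trib3 differed by -0.75 and Mthfd2, of mitochondrial folate metabolism, by -0.47. Ddit4, an mTOR inhibitor that this response shares with hypoxia, went the other way at 7.23, 6.94 and 6.55 against 5.56, 6.43 and 5.57.

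Among p53 targets 4 of 18 probes were lower and 1 higher (median -0.28, and -0.11 without 967B4). The kinase gene Plk2 differed by -0.95, the death gene Pmaip1 by -0.81 and Mdm2, the ligase that degrades p53, by -0.48, whereas the cell cycle inhibitor gene Cdkn1a differed by 0.64 at 1 probe. Of 11 metallothionein and heat shock probes 4 were lower (median -0.38). Mt1 and Mt2, which bind zinc, differed by -0.43 and -0.38, and the chaperone genes Hspa1a and Hspb1 by -0.58 and -0.26, or -0.33 and -0.14 without 967B4. None of these passed the test.

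Among the 42 pluripotency probes 7 were lower in 979B without overlap and 0 higher (median -0.13, and -0.06 without 967B4). Without 967B4, 15 were lower and 5 higher, against 23.8% and 25.8% of all measured probes. Tbx3, a regulator of the naive state, lay at 2.96, 2.60 and 2.70 against 3.50, 4.36 and 3.75 (adjusted p = 0.243), and the nuclear receptor genes Nr5a2 and Nr0b1 and the factor Klf2 differed by -0.75 (-0.46 without 967B4), -0.47 and -0.26. Of 14 probes for genes of primed pluripotency, the state of the later epiblast, 3 were lower without overlap (median -0.38, and -0.64 without 967B4). Without 967B4, 9 of them were lower and 0 higher. Otx2 lay at 4.04, 3.89 and 4.04 against 4.95, 4.62 and 5.08, and the Nodal pathway genes Lefty2 and Nodal differed by -0.51 and -0.48. Of 17 measured early lineage probes 4 were lower without overlap, and the median was -0.02, or 0.05 without 967B4. The named probes were dim: Eomes, Gsc and T, of early mesoderm and endoderm, differed by -1.64, -1.01 and -0.97, and Eomes by -0.96 without 967B4. The Eomes probe among the 17 measured differed by -1.25, and by -0.58 without 967B4. Other measured members were higher in 979B but overlapped, such as Hand1 by 0.83 (0.45 without 967B4) and Gata4 by 0.28. A dim probe of Kdr, a receptor of blood and vessel precursors, differed by 0.96 and by 0.41 without 967B4, while a brighter one differed by -0.02.

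Of 19 probes for DNA methylation enzymes and deaminases 4 were higher and 1 lower (median 0.08, and 0.05 without 967B4). The de novo methyltransferase Dnmt3a and its cofactor Dnmt3l differed by 0.46 and 0.31, the oxidase Tet2 by 0.12 and 1 probe of the glycosylase Tdg by -0.30. Other measured probes of Tdg differed by 0.02 and -0.07. Of 29 probes for imprinted genes 4 were higher and 2 lower (median 0.03, and -0.17 without 967B4). Dlk1 differed by 2.84, and by 1.25 without 967B4. Plagl1, an imprinted zinc finger gene, differed by -0.71 at 1 probe. Its other measured probes differed by -0.62, -0.23 (-0.35 without 967B4) and -0.08. Dio3, a deiodinase of the same imprinted region as Dlk1, differed by -0.66. One probe of Impact, a translation regulator, differed by 0.95 and another by -0.60. Of 16 germline probes 2 were higher and 1 lower (median -0.04, and -0.13 without 967B4). Taf7l, a TFIID subunit of germ cells, lay at 3.30, 3.20 and 3.27 in 979B and at 2.60, 2.44 and 2.61 in 967B, with an adjusted p of 0.163, and of 0.0196 with the spread of all 12 clones. The germ cell genes Stk31 and Dmrt1 differed by 0.31 and -0.31. Tex13b was not well above background in 979B and at least 2.55-fold higher in 967B (adjusted p = 0.25).

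Fibroblasts were the cells of origin, and the clones had also been grown on feeder cells before the passage on gelatin. Of the markers Col1a1, Col1a2, Col3a1, Thy1, Twist2, Prrx1, Postn, Lum and Dcn, 4 were detected in all 6 clones and Lum in none. Their summed linear level was 11.6 to 17.6 in 979B and 14, 1.82 and 6.85 in 967B2, 967B4 and 967B6, against 777 to 1080 for the pluripotency markers. Over the longer list of fibroblast genes the median difference was 1.02, and 0.22 without 967B4. In 13 measured probes 1, that of the matrix gene Fn1, was higher in 979B without overlap, at 6.5, 6.42 and 6.28 against 6.02, 6.15 and 5.86. The part of remaining fibroblast RNA in the other differences was not tested, and fewer such cells and less RNA per cell cannot be told apart in a bulk sample.

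The remaining lists gave few differences. Of the 13 interferon and MHC class I probes 2 were higher and 2 lower (median -0.13, and -0.21 without 967B4), with B2m at 0.85, 1 probe of Xaf1 at 0.91 and another at -0.18, and the RNA sensor gene Ddx58 at -0.65. Of the 2-cell genes 1 probe of 13 was measured on all 6 arrays. Y-linked genes overlapped between the series, but Uty lay at -0.39 in 967B6 against -2.56 to -2.10 in the other 5 clones, and the summed level of the Y-linked list was 63.1 in 967B6 against 15.9 to 22.3 in the others. Among the strain-polymorphic genes, the glyoxalase gene Glo1 differed by 0.22.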

How the data were processed

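One-colour Agilent mouse arrays of 12 iPS cell clones, 1 array a clone, were analysed, with groups taken from the sample labels. The deposited scanner files hold Cy3 spot intensity from Feature Extraction 10.7.3.1, background-subtracted by that software. The deposited table of log2 values was normalised by the authors to the 75th percentile of each array and had a median absolute difference from the values used here of at most 0.00678 on any array.

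Spots flagged as outliers were left out, 133 to 181 of them on each wild-type array, and a probe left with no spot on an array was fitted on the other clones. After log2, averaging of spots of a probe and subtraction of the array's 75th percentile, the 55681 probes other than controls were tested with limma 3.58.1 (R 4.3.3) on the 6 wild-type clones, with Benjamini-Hochberg adjustment. A call needed an adjusted p under 0.05 and over 2-fold. The fit was tested on simulated data with the spreads of the real probes. The changed probes were drawn from those well above background on all 6 arrays, so recovery was not measured for dimmer probes. At an adjusted p under 0.05 it recovered 15 of 100 changes of log2 1 and 70 of 100 of log2 2. It made 9 false calls, with 55630 probes in the simulation. A second fit gave each series a mean over all 12 clones. Where no array of a series was well above background, a bound ("at least N-fold") was computed: each dim array entered at its lowest signal that was well above background, or at the probe's signal where that was higher. Probes were named through RefSeq accessions, of which 27235 of 28685 matched, and genes were ordered by RefSeq on GRCm38.p6. LincRNA positions are those of the array design (mm9).

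Named genes were, in each direction, up to 12 by size of change past both thresholds, 1 probe a gene and above background on all arrays of a series, then the smallest p over 2-fold. To these were added Nanog, Pou5f1, Eras, Dppa5a, Khdc3 and Gapdh, up to 4 genes of each of 17 lists, and 3 lincRNA probes in each direction. The targeted gene and some other genes that this rule selects are not reported here, and none took their place. Members and lists were chosen with earlier results of these data known. Nothing states that clones of a series came from separate cultures of fibroblasts, so p-values measure the spread between these clones. The number of arrays limits the precision. Alternatives were other background corrections, normalisations, filters and tests, and each clone left out. Leaving out single Aid-/- clones was added after seeing the data. Comparisons by genotype were not analysed here. Python 3.11.15, numpy 2.4.6, pandas 2.3.3 and matplotlib 3.10.9 were used.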

Additional observations from a re-analysis of the deposited data

Results flagged for a closer look

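For 7 of the probes named above, the difference between 979B and 967B was not the same as that between 979F and the second Aid-/- series (981E1, 981E4 and 981E5), by limma's test of the difference of the 2 differences with Benjamini-Hochberg adjustment. The probes had been chosen for their difference in the wild type, which is part of this contrast. Of all 55681 probes 59 passed this test at an adjusted p under 0.05, and 13 of the 44 past both thresholds in the wild type. The difference of differences (log2) was 2.41 for Gm3219, 2.79 for Ankrd33b, 2.08 for Stk3, -2.29 for Slc23a1, 3.43 for the lincRNA probe A_30_P01031606, and 5.29 and -5.29 for the unnamed A_55_P2132982 and A_55_P2164085. For 3 of them the size is not a measured difference, since 967B was not well above background in Ankrd33b, and neither 967B nor either Aid-/- series in A_30_P01031606 and A_55_P2132982. In Ankrd33b and Stk3 the Aid-/- series both lay near 979B, and in the lincRNA and unnamed probes they lay nearer to 967B. Without 979F3, the adjusted p was 0.0479 for Gm3219, 0.000587 for A_55_P2132982 and 0.0194 for A_55_P2164085, whereas it was 0.0506 for Stk3, 0.0619 for A_30_P01031606, 0.0715 for Ankrd33b and 0.126 for Slc23a1, which then missed the threshold. Gm3219 was higher in 979F than in the second Aid-/- series too, by a smaller margin, whereas Slc23a1 went the opposite way.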

How the results depend on the processing

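No paired analysis was possible because 967B and 979B share only clone number 4, and the numbers name colonies. The slide could not be fitted as a block, since each wild-type series lay on 1 slide. The 22 higher and 22 lower probes were unchanged with the deposited log2 values and at 1.5-fold. Counts of higher and lower probes were 33 and 64 with normexp, 33 and 33 with quantile normalisation, 19 and 13 with the percentile over detected probes, 65 and 112 over probes above background on at least 3 arrays, 59 and 109 over those above on all 6, 55 and 92 with an intensity trend, 110 and 171 in the fit of all 12 clones, 0 and 3 with the methods' t-test, and 0 and 0 at an adjusted p under 0.01 (4946 at an unadjusted p under 0.05). Past the adjusted p alone, these settings gave 251, 83, 32, 218, 244, 167, 396, 8 and 0 probes against 44. Leaving out each clone gave 0 to 45 higher, 0 to 85 lower and 0 to 130 past the adjusted p alone, the highest without 967B4. In the fit of all 12 clones it gave 55 to 297 higher and 82 to 485 lower, an alternative added after seeing the data. The distance between minus within series was 3.4 to 22.3. Of the called probes, 84.1% had the same direction in the Aid-/- series, 80% of the 20 above background on all 12 arrays, and 82.3% to 100% when a 967B clone was left out, on 130 calls without 967B4 and 1 call otherwise. It was 86.4% without 979F3, also added after seeing the data. Without a 979B clone there was no call to count.

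Of 94 named results, 10 of their recomputed values reversed. With one clone left out, values ranged from -0.38 to 0.26 for Nanog, from -0.22 to 0.08 for Pou5f1, from -0.1 to 0.17 for Dppa5a, from -0.99 to 0.09 for Uty, from -0.25 (without 967B4) to 4.91 for Zscan4f, and from -0.04 to 0.09, -0.03 to 0.05 and -0.02 to 0.09 for 3 Gapdh probes. A Gapdh probe was -0.01 with quantile normalisation. The cause of these changes was not tested.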
